A study of Mus musculus with 4 samples.

Results

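The mitochondrial carrier family is a set of membrane proteins, most of them in the inner mitochondrial membrane, that exchange nucleotides, phosphate, acylcarnitines, amino acids and organic acids between the cytosol and the mitochondrial matrix. The members described here were all gene symbols made of Slc25a and a number, together with *Ucp2* and *Ucp3*, the uncoupling proteins of the same family, that had at least 10 reads in at least 1 of 4 mouse heart libraries. Of 23337 gene symbols listed, 46 were carriers by this rule and 43 of these reached the minimum. The 3 that did not were *Slc25a21* with 1 to 5 reads in a library, *Slc25a41* with 0 to 4 reads and *Slc25a48* with 0 to 6 reads. Just inside the minimum were *Slc25a43*, with at most 21 reads in any library, and *Slc25a18*, with at most 22. The rule itself used no difference between groups, but it was set with earlier results of these data known.

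A heart beats on ATP that is made in its mitochondria, so carriers that bring in phosphate, ADP and acylcarnitines and send out ATP are among the most used proteins of cardiomyocytes. Most carriers are built from repeats of the same fold and work as exchangers, with 1 substrate going in as another goes out. A few let protons leak back across the membrane instead, and these are called uncoupling proteins.

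The libraries were made from hearts of C57BL6/J mice at 2 and at 6 months of age. The controls were PIMT fl/fl mice, whose PIMT gene (*Tgs1*, also called Ncoa6ip, for an RNA cap methyltransferase that also binds a nuclear receptor coactivator) carries loxP sites around exons 3 and 4. The csPIMT-/- mice carried the same floxed alleles and a Cre recombinase driven by the α-myosin heavy chain promoter, which is active in cardiomyocytes only, so that other cells of the heart keep the gene. RNA of 5 hearts, of male and female mice together, was pooled for each group, and each pool gave 1 library. There were thus no replicates at either age, no error between hearts could be estimated, and the comparison of the genotypes at each age has no test.

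Reads assigned to genes numbered between 29823073 and 40705783 in a library. *Tgs1* had 670 and 928 reads in the PIMT fl/fl libraries of 2 and 6 months and 130 and 156 reads in the csPIMT-/- libraries, a ratio of 0.271 (95% interval 0.223 to 0.327) at 2 months and 0.194 (0.162 to 0.230) at 6 months, in the direction of the labels. With the trend with GC content described at the end subtracted, *Tgs1* (GC content 41.9%) was less far below 1, at 0.639 and 0.525. Here and throughout, a ratio is the level in csPIMT-/- over that in PIMT fl/fl of the same age, and its interval covers the counting of reads only. Genes that mark other cells differed between the pools. The summed normalized count of 4 atrial markers (*Sln*, *Myl7*, *Myl4* and *Bmp10*) was 2560 in the PIMT fl/fl library of 2 months and between 29128 and 132951 in the other 3. The 5 adipocyte markers summed to 10.4 in that library, with *Retn* and *Lep* at 0, and to between 2136 and 12522 in the others. The 5 lung markers summed to 1160 in the csPIMT-/- library of 2 months and to between 1.73 and 17.7 elsewhere. Fibroblast, endothelial and smooth muscle markers summed to between 58837 and 97047, 34538 and 51240, and 26277 and 59344. The 6 cardiomyocyte markers summed to between 897615 and 1220810, with the lowest sum in the csPIMT-/- library of 6 months. *Myh6* gave the largest part of that sum, and the markers did not all go the same way. At 6 months 4 of them had ratios below 1, whereas *Actc1* and *Tnni3* had 1.33 and 1.15. In RNA from whole hearts, fewer cells of a type and less RNA per cell cannot be told apart.

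Carriers took up 0.699% (95% exact interval 0.696 to 0.702) of the reads in PIMT fl/fl hearts at 2 months and 0.631% (0.628 to 0.633) at 6 months. In csPIMT-/- hearts they took up 0.751% (0.748 to 0.754) at 2 months and 0.557% (0.555 to 0.560) at 6 months. The share was thus the highest of the 4 in the younger csPIMT-/- hearts and the lowest in the older ones. Per kilobase of transcript, the leading carrier in PIMT fl/fl hearts was *Slc25a4*, the ADP/ATP exchanger of heart and muscle, with a mean normalized count of 47287 over the control libraries. Behind it came *Slc25a3*, the phosphate carrier, at 21347, *Slc25a11*, the oxoglutarate/malate carrier, at 11620, and *Slc25a5*, the ADP/ATP exchanger found in many tissues, at 10148. *Slc25a20*, the carnitine/acylcarnitine carrier, was 5th at 4794. The ranges over all libraries of *Slc25a11* (10811 to 16996 per kilobase) and *Slc25a5* (8195 to 12100 per kilobase) overlapped, whereas those of *Slc25a4*, *Slc25a3* and *Slc25a20* overlapped with no other among these 5. At the low end, *Slc25a18*, a glutamate carrier, was 43rd with 2.58 to 12.0 per kilobase.

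**Figure D1:**
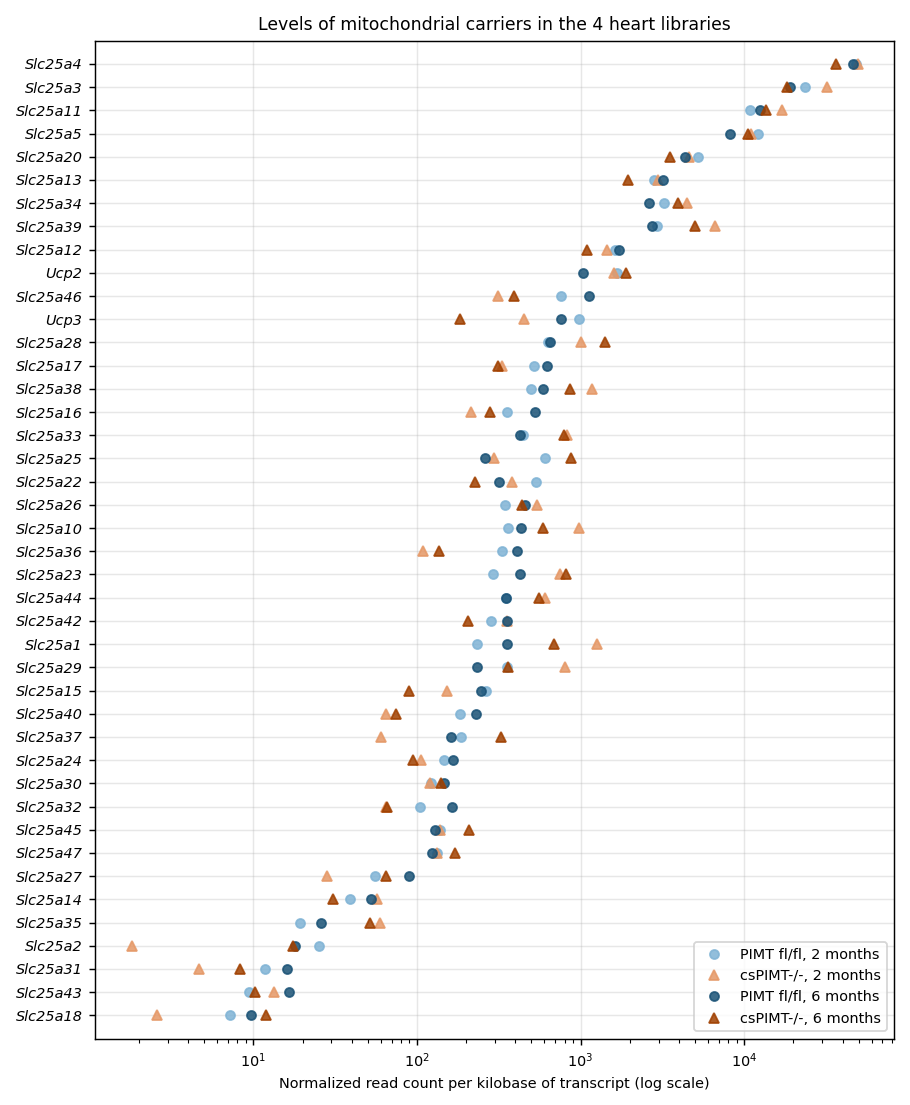
Normalized read count per kilobase of transcript (x axis, log scale) of 42 of the 43 mitochondrial carriers, ordered by their mean in the 2 PIMT fl/fl libraries, with circles for PIMT fl/fl and triangles for csPIMT-/- and 1 point per library. The range runs from *Slc25a18* at the bottom to *Slc25a4* at the top, and for *Ucp3*, *Slc25a46*, *Slc25a36* and *Slc25a40* both csPIMT-/- points lie to the left of both PIMT fl/fl points.

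The family as a whole did not shift in 1 direction. At 2 months 10 of 43 carriers had a ratio below 0.5 and 7 a ratio above 2, where 23.0% and 16.4% of all genes compared did so. At 6 months 7 were below 0.5 and 2 above 2, against 25.7% and 16.0% of all genes. The median ratio of the carriers was 0.973 at 2 months and 0.937 at 6 months, beside 0.978 and 0.976 over all genes. Below 0.5 at both ages were *Slc25a36*, *Slc25a40*, *Slc25a46* and *Ucp3*. No carrier was above 2 at both ages, and *Slc25a25* was below 0.5 at 2 months and above 2 at 6 months. Of the 43 carriers, 28 lay on the same side of 1 at both ages, beside 11672 of 14781 genes compared at both ages, a larger share. Between the PIMT fl/fl libraries, 6 over 2 months, 1 carrier (*Slc25a25*) was below 0.5 and none above 2, where 5.21% and 8.15% of all genes were.

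Genotype was tested only over both ages together, with limma (genotype and age in the model, 1 residual degree of freedom and the variance shared across genes). At an adjusted p under 0.05, 5 carriers were lower in csPIMT-/- hearts and 5 were higher, where 17.9% and 12.1% of all 14935 genes were called. The lower carriers were *Slc25a15*, *Slc25a36*, *Slc25a40*, *Slc25a46* and *Ucp3*, and the higher ones *Slc25a1*, *Slc25a23*, *Slc25a28*, *Slc25a33* and *Slc25a39*. edgeR's quasi-likelihood test also called 5 lower and 5 higher. In limma 0 carriers and 0 of all genes were called when the variance was not tied to the mean level or when the trend with GC content described below was subtracted. At an unadjusted p under 0.05, 8 carriers were then lower and 7 higher in the first of these fits, and 2 and 1 in the second. The counts over all genes, for edgeR and for these fits, are given in the closing sections.

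**Figure D2:**
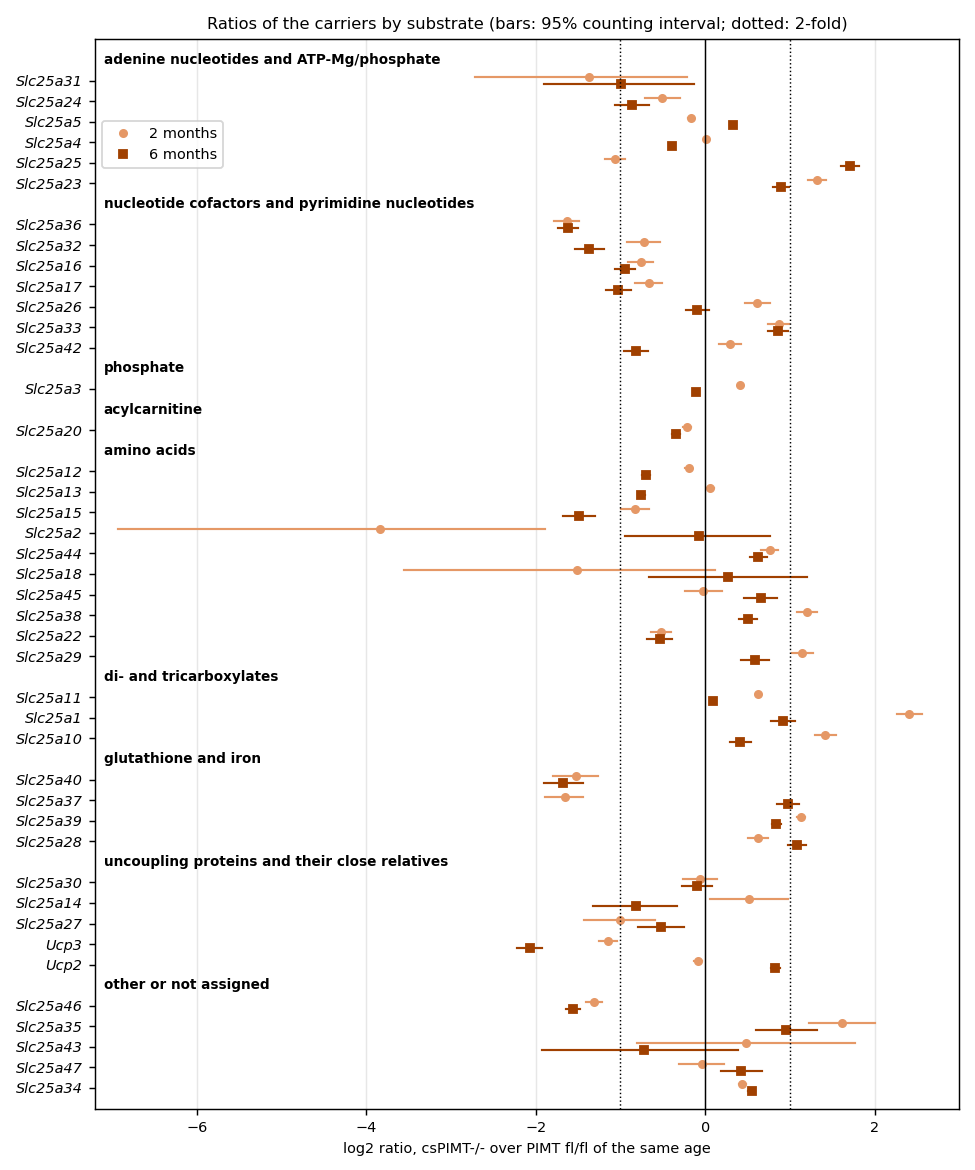
Log2 ratio of csPIMT-/- over PIMT fl/fl (x axis) for 42 of the 43 carriers, grouped by substrate and ordered within a group by the GC content of the transcript, with circles for 2 months, squares for 6 months and bars for the 95% counting interval. Dotted lines mark a 2-fold difference, past which *Ucp3*, *Slc25a36*, *Slc25a40* and *Slc25a46* lie to the left at both ages, and *Slc25a25* lies left at 2 months and right at 6 months.

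The ADP/ATP exchangers carry ATP out of the matrix in exchange for ADP. *Slc25a4* (chr8:46206797-46211284, GRCm38) had normalized counts of 92794 and 89263 in PIMT fl/fl hearts of 2 and 6 months and 95606 and 69867 in csPIMT-/- hearts. Its ratio was 1.01 (1.0 to 1.02) at 2 months and 0.763 (0.755 to 0.770) at 6 months, so 3 libraries lay close together and the older csPIMT-/- library was the low one. *Slc25a5* had 15004 and 10162 in PIMT fl/fl hearts and 13658 and 13115 in csPIMT-/- hearts, with ratios of 0.892 (0.871 to 0.914) and 1.26 (1.23 to 1.29), and the genotypes overlapped. The share of *Slc25a4* among the reads of this pair was 86.1% and 89.8% in PIMT fl/fl hearts of 2 and 6 months and 87.5% and 84.2% in csPIMT-/- hearts. It was thus higher than in the control at 2 months and lower at 6 months. Reads that fit both genes or their processed pseudogenes could be dropped or split in the counting, and the levels of both are uncertain to that extent. *Slc25a31*, the exchanger of male germ cells, had only 8 to 39 reads in a library.

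The ATP-Mg/phosphate carriers, which are opened by calcium and set the size of the adenine nucleotide pool in the matrix, did not all differ in the same direction. *Slc25a23* had normalized counts of 985 and 1428 in PIMT fl/fl hearts of 2 and 6 months and 2507 and 2723 in csPIMT-/- hearts. The csPIMT-/- libraries lay above both controls, with ratios of 2.50 (2.32 to 2.69) and 1.86 (1.74 to 1.98), and limma gave a log2 difference of 1.15 (SE 0.23, adjusted p = 0.0232). *Slc25a24* was below its control at both ages, with 503 and 573 in PIMT fl/fl hearts and 361 and 324 in csPIMT-/- hearts (ratios 0.704 and 0.550, limma adjusted p = 0.156). With the trend with GC content described at the end subtracted, *Slc25a24* (GC content 42.5%) turned to 1.57 and 1.42, above 1 like *Slc25a23*. Of the reads of these 2 genes, *Slc25a24* held 33.8% and 28.6% in PIMT fl/fl hearts and 12.6% and 10.6% in csPIMT-/- hearts.

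*Slc25a25*, the third of these carriers, was the only carrier that was past 2-fold in opposite directions. Its normalized counts were 2136 and 916 in PIMT fl/fl hearts of 2 and 6 months and 1043 and 3075 in csPIMT-/- hearts, so the lowest and the second highest value were both from controls and the genotypes overlapped. The ratio was 0.479 (0.442 to 0.518) at 2 months and 3.27 (3.05 to 3.52) at 6 months, and the log2 difference over both ages was 0.37 (SE 0.62, limma adjusted p = 0.674). The older control was at 0.409 of the younger one, and the older csPIMT-/- library at 2.87 times the younger. *Slc25a25* is known to be induced by cyclic AMP signals. Of its 3 RefSeq start sites in GRCm38.p6, 1 has the cyclic AMP response element TGACGTCA in the 250 bases before it. That window is given here, with the element in capitals, since this carrier differed most between the control pools. The window lies at chr2:32424067-32424316, on the minus strand, and the element starts 150 bases before the start site.

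Slc25a25: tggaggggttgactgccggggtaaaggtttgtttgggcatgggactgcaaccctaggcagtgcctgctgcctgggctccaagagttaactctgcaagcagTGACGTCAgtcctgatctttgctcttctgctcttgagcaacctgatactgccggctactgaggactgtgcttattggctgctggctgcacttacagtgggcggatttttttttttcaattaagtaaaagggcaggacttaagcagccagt

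Among windows of 300 bases around start sites (250 before and 50 after), 1.79% of all 32851 in the mouse hold TGACGTCA on either strand. Of 42 windows of carriers, 2 hold it, 1 of *Slc25a25* and 1 of *Slc25a36*. The motif is a match of letters and says nothing of binding in these hearts.

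The carriers of cofactors and pyrimidine nucleotides had a median ratio of 0.544 at 6 months, and of 0.969 with the GC trend subtracted. Of 8, 3 were below 0.5 at that age, beside 25.7% of all genes, whereas at 2 months 1 was below 0.5 and the median was 0.925. None was above 2 at either age. *Slc25a36* (chr9:97074961-97111157), which carries pyrimidine nucleotides into the matrix for mitochondrial DNA and RNA, had normalized counts of 1738 and 2139 in PIMT fl/fl hearts and 572 and 715 in csPIMT-/- hearts. Both csPIMT-/- libraries lay at about the same distance below their controls, with ratios of 0.323 (0.291 to 0.357) and 0.326 (0.299 to 0.354) and a limma log2 difference of -1.58 (SE 0.23, adjusted p = 0.0132). *Slc25a33*, the other pyrimidine nucleotide carrier, had 835 and 800 in PIMT fl/fl hearts and 1553 and 1488 in csPIMT-/- hearts. Here both csPIMT-/- libraries were above both controls, with ratios of 1.82 (1.68 to 1.99) and 1.81 (1.67 to 1.97) and a limma log2 difference of 0.90 (SE 0.23, adjusted p = 0.0375). The share of *Slc25a33* in the reads of this pair was therefore 32.4% and 27.2% in PIMT fl/fl hearts and 73.1% and 67.5% in csPIMT-/- hearts. Per kilobase of transcript its share was 57.1% and 50.9% in PIMT fl/fl hearts and 88.3% and 85.2% in csPIMT-/- hearts. *Slc25a36* thus had more reads in control hearts, but per kilobase *Slc25a33* held the larger share in every library.

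*Slc25a32*, linked to folate and flavin transport, had normalized counts of 615 and 972 in PIMT fl/fl hearts and 380 and 387 in csPIMT-/- hearts, with ratios of 0.605 and 0.388. *Slc25a17*, a peroxisomal member that carries coenzyme A and other cofactors, had ratios of 0.630 and 0.491, and *Slc25a16*, linked to coenzyme A in the matrix, 0.590 and 0.520. For these 3 the csPIMT-/- libraries were below both controls, and limma gave adjusted p = 0.0584, 0.0698 and 0.0534. With the GC trend subtracted they were at 1.52 and 1.11, 1.08 and 0.935, and 1.21 and 1.23. *Slc25a42*, which imports coenzyme A, was above its control at 2 months (1.22) and below it at 6 months (0.568). *Slc25a26*, the carrier of S-adenosylmethionine, had ratios of 1.53 and 0.937.

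Phosphate for ATP synthesis enters the matrix through *Slc25a3* (chr10:91116574-91124059). Normalized counts were 38133 and 30689 in PIMT fl/fl hearts of 2 and 6 months and 51817 and 29320 in csPIMT-/- hearts. The younger csPIMT-/- library was the highest, with a ratio of 1.33 (1.31 to 1.35), and the older was close to its control, with a ratio of 0.931 (0.916 to 0.946), so the genotypes overlapped and limma called no difference (log2 0.20, SE 0.27, adjusted p = 0.605). Long-chain fatty acids enter as acylcarnitines through *Slc25a20* (chr9:108662088-108684641). It had 9310 and 7787 in PIMT fl/fl hearts and 8184 and 6276 in csPIMT-/- hearts. Each csPIMT-/- library lay under the control of its age, with ratios of 0.862 (0.836 to 0.889) and 0.785 (0.760 to 0.811), but the younger csPIMT-/- library was above the older control, and the log2 difference was -0.24 (SE 0.21, limma adjusted p = 0.406).

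Enzymes that work on the same acylcarnitines were compared with *Slc25a20*. The carnitine palmitoyltransferase of the inner membrane, *Cpt2*, had ratios of 0.944 and 0.627, and carnitine acetyltransferase, *Crat*, 0.976 and 0.637. *Cpt1a*, of the outer membrane, had ratios of 0.663 and 0.852. *Cpt1b*, the muscle form, was listed with 197 to 302 reads in a library, and the GENCODE annotation marks it as lying in an overlapping locus, so its reads may not all have been counted. None of these 4 was past 2-fold at either age or called by limma. With the GC trend subtracted, however, *Cpt2* and *Crat* were at 0.493 and 0.452 at 6 months.

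The aspartate/glutamate carriers belong to the malate-aspartate shuttle, which brings reducing power from the cytosol into the matrix. *Slc25a12*, the form of heart and brain, had normalized counts of 10361 and 10973 in PIMT fl/fl hearts and 9227 and 6946 in csPIMT-/- hearts, with ratios of 0.873 (0.848 to 0.899) and 0.617 (0.599 to 0.635). *Slc25a13* had 8726 and 9983 in PIMT fl/fl hearts and 9281 and 6083 in csPIMT-/- hearts, with ratios of 1.04 (1.01 to 1.07) and 0.594 (0.575 to 0.613). For both, the older csPIMT-/- library was the lowest of the 4. The share of *Slc25a12* in their reads stayed between 49.9% and 54.3% in all libraries. The enzymes of the shuttle, the aminotransferases *Got1* and *Got2* and the malate dehydrogenases *Mdh1* and *Mdh2*, had ratios between 0.823 and 1.32 at both ages.

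*Slc25a22* is a glutamate carrier that makes up nearly all of the reads of its pair with *Slc25a18* (96.5% to 99.5% in a library). It had normalized counts of 1506 and 894 in PIMT fl/fl hearts and 1074 and 634 in csPIMT-/- hearts, lower than the control by about the same factor at each age (ratios 0.699 and 0.690). *Slc25a15*, the ornithine carrier, had 907 and 843 in PIMT fl/fl hearts and 522 and 308 in csPIMT-/- hearts. Each csPIMT-/- library was below both controls, with ratios of 0.564 (0.502 to 0.632) and 0.356 (0.311 to 0.406) and a limma log2 difference of -1.11 (SE 0.30, adjusted p = 0.0442). *Slc25a2*, its close relative, had 40 and 28 reads in PIMT fl/fl hearts and 2 and 23 in csPIMT-/- hearts, and *Slc25a18* had 16 and 21 against 4 and 22. Their ratios at 2 months, 0.0698 (0.00818 to 0.269) and 0.349 (0.0849 to 1.08), thus rest on 2 and 4 reads.

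The remaining amino acid carriers had ratios above 1 at both ages in 3 of 4 cases. *Slc25a38*, which brings glycine in for heme synthesis, had normalized counts of 891 and 1055 in PIMT fl/fl hearts and 2091 and 1538 in csPIMT-/- hearts (ratios 2.30 and 1.42). *Slc25a29*, a carrier of basic amino acids, had 703 and 458 against 1590 and 707 (ratios 2.22 and 1.5). *Slc25a44*, a carrier of branched-chain amino acids, had 1251 and 1253 against 2163 and 1984 (ratios 1.69 and 1.54). For these 3 each csPIMT-/- library was above both controls, although for *Slc25a29* the older csPIMT-/- library (707) was level with the younger control (703), and limma gave adjusted p = 0.0572, 0.0583 and 0.0549. With the GC trend subtracted, *Slc25a38* and *Slc25a29* were at 0.942 and 0.898 at 6 months. *Slc25a45* had ratios of 0.985 and 1.57. In all, 2 of the 10 amino acid carriers were below 0.5 and 2 above 2 at 2 months, beside 23.0% and 16.4% of all genes, and 1 and 0 at 6 months, beside 25.7% and 16.0%. The 2 below 0.5 at 2 months were *Slc25a2* and *Slc25a18*.

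All 3 carriers of di- and tricarboxylates had ratios above 1 at both ages, but with the GC trend subtracted *Slc25a10* and *Slc25a11* were below 1 at 6 months, at 0.794 and 0.749. *Slc25a1* (chr16:17925223-17928219) exports citrate to the cytosol, where it feeds fatty acid synthesis. Its normalized counts were 387 and 594 in PIMT fl/fl hearts and 2098 and 1152 in csPIMT-/- hearts. The ratio of 5.32 (4.79 to 5.92) at 2 months was the highest of any carrier, and at 6 months it was 1.89 (1.72 to 2.08). The genotypes did not overlap, and limma gave a log2 difference of 1.71 (SE 0.40, adjusted p = 0.0318). *Slc25a10*, the dicarboxylate carrier, which is abundant in fat, had 730 and 873 in PIMT fl/fl hearts and 1991 and 1195 in csPIMT-/- hearts, with ratios of 2.67 (2.46 to 2.91) and 1.33 (1.22 to 1.45) and a limma log2 difference of 0.96 (SE 0.32, adjusted p = 0.0711). *Slc25a11*, with 18498 and 21265 against 29081 and 23184, had ratios of 1.54 (1.51 to 1.57) and 1.06 (1.04 to 1.08). In this group the csPIMT-/- library of 2 months was the highest of the 4 for each gene, and it was also the highest in the sum of the 5 adipocyte markers (12522 against 10.4 in its control). At 6 months that sum was 2136 in csPIMT-/- and 2880 in PIMT fl/fl hearts. The part of fat cells in these ratios was not tested.

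Iron enters mitochondria through *Slc25a37* (mitoferrin 1, the form of red cell precursors) and *Slc25a28* (mitoferrin 2, the form of other tissues). *Slc25a37* had normalized counts of 774 and 673 in PIMT fl/fl hearts and 250 and 1362 in csPIMT-/- hearts. The csPIMT-/- libraries were thus the lowest and the highest, with ratios of 0.317 (0.271 to 0.369) at 2 months and 1.97 (1.80 to 2.16) at 6 months and a log2 difference over both ages of -0.30 (SE 0.61, limma adjusted p = 0.732). *Slc25a28* had 977 and 992 in PIMT fl/fl hearts and 1535 and 2157 in csPIMT-/- hearts, with both csPIMT-/- libraries above both controls. Its ratios were 1.54 (1.42 to 1.67) and 2.12 (1.97 to 2.28), with a limma log2 difference of 0.90 (SE 0.24, adjusted p = 0.0425). With the GC trend subtracted, *Slc25a28* was at 0.936 and 1.26.

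*Alas2* and *Slc4a1*, genes of red cells, had the same order of libraries as *Slc25a37*. The 4 globin symbols of the marker list of 7 genes were at 0 in every library and could not be read. *Alas2*, the heme synthesis enzyme of red cells, had normalized counts of 3832 and 2855 in PIMT fl/fl hearts and 2313 and 12284 in csPIMT-/- hearts. *Slc4a1*, the anion exchanger of the red cell membrane, had 567 and 244 against 82.6 and 1014. Both were lowest and highest in the same libraries as *Slc25a37*. Their part in the ratios of *Slc25a37* was not tested.

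Glutathione, the main thiol of the matrix, is imported by *Slc25a39*, and *Slc25a40* is its close relative. *Slc25a39* had normalized counts of 4965 and 4596 in PIMT fl/fl hearts and 11118 and 8437 in csPIMT-/- hearts. Both csPIMT-/- libraries were above both controls, with ratios of 2.20 (2.12 to 2.27) and 1.79 (1.73 to 1.85) and a limma log2 difference of 1.03 (SE 0.21, adjusted p = 0.0239). *Slc25a40* (chr5:8422850-8454797) had 511 and 640 in PIMT fl/fl hearts and 181 and 206 in csPIMT-/- hearts. It was lower in both csPIMT-/- libraries, with ratios of 0.347 (0.288 to 0.417) and 0.313 (0.266 to 0.367) and a limma log2 difference of -1.55 (SE 0.31, adjusted p = 0.0223). The share of *Slc25a39* in the reads of the pair was 90.7% and 87.8% in PIMT fl/fl hearts and 98.4% and 97.6% in csPIMT-/- hearts.

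Uncoupling proteins let protons or fatty acid anions cross the inner membrane. *Ucp3* (chr7:100472990-100486432), the form of skeletal muscle and heart, is a known target of the fatty acid receptors of the PPAR family. It had normalized counts of 2410 and 1848 in PIMT fl/fl hearts of 2 and 6 months and 1110 and 452 in csPIMT-/- hearts. Both csPIMT-/- libraries were below both controls, and the older one was the lowest. The ratio was 0.451 (0.418 to 0.487) at 2 months and 0.238 (0.214 to 0.264) at 6 months, the latter the lowest of any carrier at that age, and limma gave a log2 difference of -1.56 (SE 0.30, adjusted p = 0.0209). Between the control pools the ratio was 0.733, 6 over 2 months.

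*Ucp2* (chr7:100493337-100502020), which lies next to *Ucp3* on the same chromosome, did not follow it. Its normalized counts were 6634 and 4145 in PIMT fl/fl hearts and 6377 and 7546 in csPIMT-/- hearts, with ratios of 0.942 (0.909 to 0.976) and 1.77 (1.71 to 1.84) and a limma log2 difference of 0.41 (SE 0.28, adjusted p = 0.289). *Ucp3* held 26.6% and 30.8% of the reads of both genes in PIMT fl/fl hearts of 2 and 6 months, 14.8% (95% exact interval 13.9 to 15.7) in csPIMT-/- hearts of 2 months and 5.65% (5.14 to 6.19) at 6 months. Of the relatives of unsettled function, *Slc25a30* was near its control at both ages (0.961 and 0.937), *Slc25a27* had ratios of 0.498 and 0.697 and *Slc25a14*, with 53 to 108 reads in a library, 1.43 and 0.566. *Ucp1*, the uncoupling protein of brown fat and no member here, had 10, 106, 1432 and 12 reads in the PIMT fl/fl libraries of 2 and 6 months and the csPIMT-/- libraries of 2 and 6 months. The summed brown fat markers, of which *Cidea* gave most reads, were 1901 and 1145 in PIMT fl/fl hearts and 4543 and 2625 in csPIMT-/- hearts. At 6 months *Cidea* had a ratio of 2.50, whereas *Ucp1* and *Adrb3* had 0.130 and 0.192.

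The RefSeq window before the *Ucp3* start site holds AGGTCA, the letters that nuclear receptors such as PPAR read in pairs, at 149 and at 44 bases before the start (chr7:100472741-100472990, plus strand, GRCm38.p6). *Slc25a34*, a carrier of unsettled substrate, holds it as well, as TGACCT on the strand shown, 119 bases before its start. The window of *Slc25a34* is chr4:141623835-141624084, on the minus strand. *Slc25a34* had ratios above 1 at both ages. The sequences are given for these carriers because they share the motif and their ratios lay on opposite sides of 1, with the matches in capitals. With the GC trend subtracted, *Slc25a34* was at 0.851 and 0.911, below 1 like *Ucp3*. The matches of *Ucp3* do not lie side by side, and a match of letters says nothing of binding in these hearts.

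Ucp3: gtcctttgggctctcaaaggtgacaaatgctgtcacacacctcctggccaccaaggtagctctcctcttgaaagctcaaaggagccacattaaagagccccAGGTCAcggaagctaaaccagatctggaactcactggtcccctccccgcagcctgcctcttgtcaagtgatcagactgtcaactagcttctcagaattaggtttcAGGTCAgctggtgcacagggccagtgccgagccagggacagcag

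Slc25a34: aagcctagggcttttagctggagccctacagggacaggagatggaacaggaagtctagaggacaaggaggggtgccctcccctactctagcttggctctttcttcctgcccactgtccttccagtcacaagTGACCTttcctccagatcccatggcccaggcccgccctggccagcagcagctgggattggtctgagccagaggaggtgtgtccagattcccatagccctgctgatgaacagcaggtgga

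AGGTCA was found on either strand in 16.3% of all windows of 300 bases and in 5 of 42 windows of carriers (11.9%), those of *Slc25a34*, *Slc25a39*, *Slc25a45*, *Slc25a47* and *Ucp3*. The ratios of these 5 at 6 months were 1.46, 1.79, 1.57, 1.34 and 0.238. The GC box GGGCGG was found in 85.7% of the windows of carriers and in 35.7% of all windows, and TATAAA in 2.38% and 13.6%. RefSeq windows were at hand for 34 of the 43 carriers.

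Of the 5 carriers with other or unsettled substrates, *Slc25a34* had the most reads. Its normalized counts were 8660 and 6999 in PIMT fl/fl hearts and 11964 and 10523 in csPIMT-/- hearts. The genotypes did not overlap, with ratios of 1.35 (1.32 to 1.39) and 1.46 (1.42 to 1.51), and limma gave adjusted p = 0.10. *Slc25a46*, a protein of the outer membrane that takes part in mitochondrial fission and fusion and carries no known substrate, had 3339 and 4889 in PIMT fl/fl hearts and 1372 and 1704 in csPIMT-/- hearts. It was lower in both csPIMT-/- libraries, with ratios of 0.403 (0.377 to 0.431) and 0.340 (0.321 to 0.359) and a limma log2 difference of -1.39 (SE 0.21, adjusted p = 0.0141). *Slc25a35* had ratios of 3.05 (2.33 to 4.02) and 1.94 (1.52 to 2.49) on 81 to 180 reads, *Slc25a47* 0.973 and 1.34, and *Slc25a43*, with 11 to 21 reads, 1.40 and 0.604.

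Within a library, shares of pairs of related carriers do not depend on how the total of a library is scaled, but they do depend on a trend with GC content where the genes of a pair differ in it. Of 9 such pairs, the share of the first gene was lower in csPIMT-/- hearts at both ages for *Ucp3* to *Ucp2* and for *Slc25a24* to *Slc25a23*. It was higher at both ages for *Slc25a33* to *Slc25a36*, *Slc25a39* to *Slc25a40* and *Slc25a28* to *Slc25a37*. Of these 5 pairs, *Slc25a24* (42.5%) and *Slc25a23* (56.4%), *Slc25a36* (40.7%) and *Slc25a33* (53.8%), and *Slc25a40* (39.7%) and *Slc25a39* (59.7%) differ in GC content by more than 10 percentage points. So do *Slc25a37* (48.7%) and *Slc25a28* (60.9%). With the GC trend subtracted, *Slc25a24* was no longer lower relative to *Slc25a23* at 6 months (1.42 against 1.21), while *Slc25a33* stayed above *Slc25a36* (1.37 against 0.853, and 1.31 against 0.968). For *Slc25a28* and *Slc25a37* the share was 55.8% and 59.6% in PIMT fl/fl hearts and 86.0% and 61.3% in csPIMT-/- hearts, so the older libraries differed little. With the GC trend subtracted, *Slc25a28* was above *Slc25a37* at 2 months (0.936 against 0.381) and below it at 6 months (1.26 against 2.35). The other 4 pairs went up at 1 age and down at the other.

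**Figure D3:**
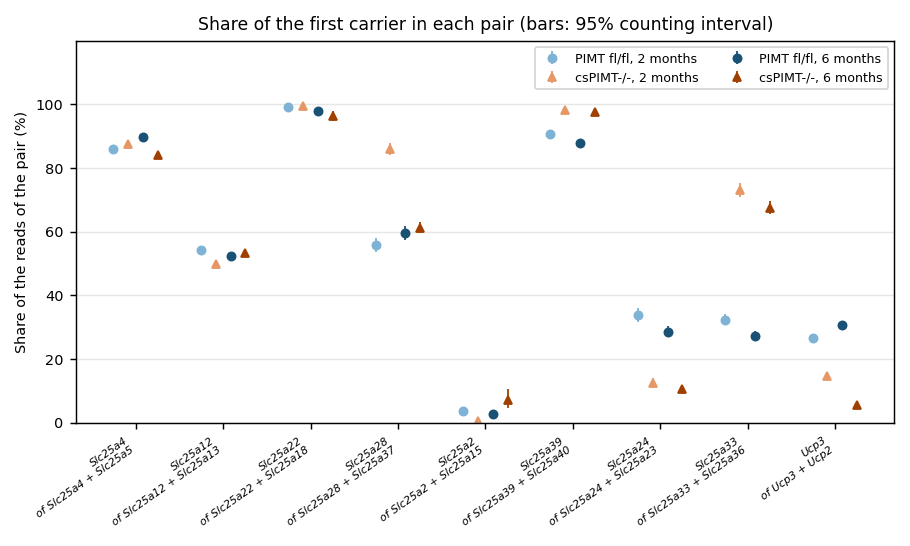
Share of the first carrier in the summed reads of each of 9 pairs of related carriers (y axis, %), with circles for PIMT fl/fl, triangles for csPIMT-/-, 1 point per library and bars for the 95% exact counting interval. *Slc25a33* lies at 27.2% and 32.4% in PIMT fl/fl hearts and at 67.5% and 73.1% in csPIMT-/- hearts, and *Ucp3* lies at 5.65% in csPIMT-/- hearts of 6 months.

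The ratios of carriers went with the GC content of their transcripts, as did those of other genes. Across the 43 carriers, Spearman's rho of the log2 ratio with GC content was 0.660 at 2 months and 0.679 at 6 months, and across all other genes it was 0.593 and 0.620. The genes share 2 libraries in each comparison and are not independent. Between the control pools the same rho was -0.294 for carriers and -0.270 for other genes. The 7 carriers with a GC content under 45% (*Slc25a16*, *Slc25a24*, *Slc25a31*, *Slc25a32*, *Slc25a36*, *Slc25a40* and *Slc25a46*) all had ratios below 1 at both ages, with medians of 0.403 and 0.388. Of the 14 with a GC content over 55%, 11 were above 1 at 2 months and 10 at 6 months, with medians of 1.47 and 1.44.

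**Figure D4:**
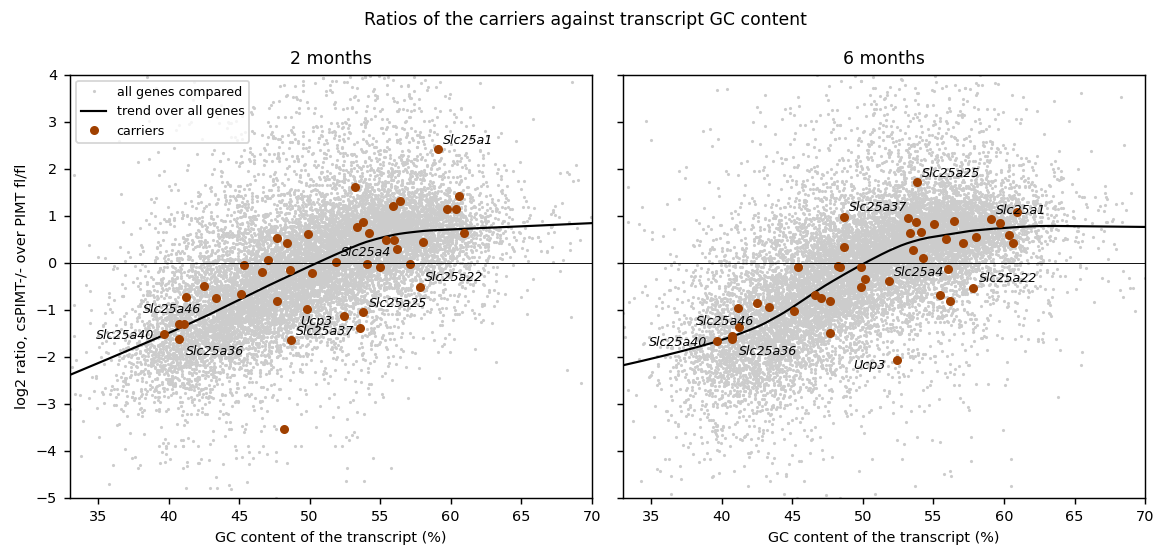
Log2 ratio of csPIMT-/- over PIMT fl/fl (y axis, with 0.5 reads added to each count) against the GC content of the longest protein-coding transcript (x axis, %) at 2 and 6 months, with all genes compared in gray, the carriers in brown and the smoothed trend over all genes as a line. *Slc25a36*, *Slc25a40* and *Slc25a46* lie on or near the line at low GC content, while *Ucp3* lies below it and *Slc25a25* leaves it downward at 2 months and upward at 6 months.

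After the trend over all genes was subtracted, the carriers below 0.5 at both ages were read differently from each other. *Ucp3* (GC content 52.4%) stayed low at 0.381 and 0.190, whereas *Slc25a40* came to 1.01 and 1.0, *Slc25a46* to 1.06 and 1.01 and *Slc25a36* to 0.853 and 0.968. *Slc25a22* (GC content 57.8%) came to 0.441 and 0.431 and *Slc25a15* to 0.746 and 0.477. On the upper side, *Slc25a1* came to 3.30 and 1.15, *Slc25a23* to 1.63 and 1.21 and *Slc25a39* to 1.35 and 1.08. *Slc25a37* moved to 0.381 and 2.35 and *Slc25a25* to 0.358 and 2.36, each with its directions as before. Of the 43 carriers, 15 crossed 1 at 2 months and 16 at 6 months when the trend was subtracted. With the trend subtracted 6 carriers were below 0.5 and 2 above 2 at 2 months, and 5 and 2 at 6 months. At 2 months 1537 of 13748 genes with a GC value were then below 0.5 (11.2%) and 2005 above 2 (14.6%). At 6 months 1763 of 13787 were below 0.5 (12.8%) and 1887 above 2 (13.7%). Without the subtraction, the counts over all genes compared were 3492 and 2487 of 15152 at 2 months and 3917 and 2428 of 15218 at 6 months. What the GC content stands for in these libraries was not tested.

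Other genes of mitochondrial membrane transport were read beside the carriers. Of 26, 3 were below 0.5 and 5 above 2 at 2 months, and 6 and 3 at 6 months. limma called 4 lower and 7 higher. Of all genes, 23.0% and 16.4% were past 2-fold at 2 months, 25.7% and 16.0% at 6 months, and 17.9% and 12.1% were called. *Tspo*, a cholesterol-binding protein of the outer membrane that macrophages also express, had normalized counts of 1688 and 2908 in PIMT fl/fl hearts and 7324 and 14291 in csPIMT-/- hearts (ratios 4.25 and 4.79, limma adjusted p = 0.0122). The summed leukocyte markers were 3954 and 7673 in PIMT fl/fl hearts and 9555 and 12022 in csPIMT-/- hearts, and their part in the level of *Tspo* was not tested. *Csf1r* gave most of that sum, and *Ptprc*, of the same list, had ratios of 0.522 and 0.432 (limma adjusted p = 0.0497). The 3 porins of the outer membrane, *Vdac1*, *Vdac2* and *Vdac3*, had ratios of 1.02 and 1.01, 1.15 and 0.966, and 0.785 and 0.471.

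Partners of the ADP/ATP exchangers showed 1 large difference. *Ckmt1*, the mitochondrial creatine kinase of tissues other than striated muscle, had 45 and 28 reads in PIMT fl/fl hearts of 2 and 6 months and 88 and 584 in csPIMT-/- hearts. Both csPIMT-/- libraries were above both controls, with ratios of 2.73 (1.89 to 4.0) and 24.0 (16.5 to 36.5) and a limma log2 difference of 3.02 (SE 0.79, adjusted p = 0.0404). edgeR's quasi-likelihood test did not call it (adjusted p = 0.0528). *Ckmt2*, the form of heart and muscle, had normalized counts of 55244 and 64999 in PIMT fl/fl hearts and 88470 and 78428 in csPIMT-/- hearts (ratios 1.57 and 1.18), and remained by far the more abundant. Cyclophilin D, *Ppif*, had ratios of 1.05 and 0.768. Of the 12 enzyme partners listed, *Ckmt1* was the only gene past 2-fold at either age without subtraction of the GC trend. With the trend subtracted, *Ckmt1* was at 1.91 and 16.5, and *Cpt2* and *Crat* were below 0.5 at 6 months.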

How the data were processed

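RNA was measured by single-end sequencing of oligo-dT selected, directional libraries. The authors trimmed adapters, removed reads of poor quality or from ribosomal RNA, aligned the rest to mm10 with STAR and counted them per gene with htseq-count (HTSeq 0.6.1p1 in the submitters' processing notes) and DESeq2 was used for differential expression. They deposited 1 normalized count (a signal, neither raw nor scaled to a fixed total) per gene symbol and library. The library of csPIMT-/- hearts of 6 months is headed as read counts but holds normalized values too. In every library 100% of values were whole multiples of the lowest nonzero value (within 4.89e-09 reads), and dividing by it recovered whole reads.

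Ratios were taken from recovered reads, scaled for each comparison by the median of ratios, for genes with at least 10 reads in 1 library of the comparison. A gene was counted when its ratio was below 0.5 or above 2. Intervals of ratios and shares are exact 95% Clopper-Pearson intervals, and cover counting error only. The fit over both ages used limma 3.58.1 on log2 values of the recovered reads (TMM normalization, pseudocount 1, mean trend of the variance, Benjamini-Hochberg adjustment) for genes with 10 scaled reads in 2 libraries, and its 1 residual and 4.51 prior degrees of freedom make it rest on the variance shared across genes. edgeR 4.0.16 was the alternative on recovered reads, and called 2508 genes lower and 1619 higher of 14935. With 1 library per group the design has no replicate that could be left out, and the sources used here give no batch. GC content, length and gene coordinates are those of GENCODE M21 (GRCm38), with the longest protein-coding transcript of a symbol. The trend was a lowess curve of span 0.3. A GC value was at hand for 90.7% and 90.6% of the genes compared and for all carriers. Start-site windows came from RefSeq (GRCm38.p6).

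Carriers are reported by substrate. Some genes the rules cover are not reported here and remain in the counts. Values in every library are given for the leading 2 of each group, those past 2-fold at both ages or in opposite directions, members of pairs and carriers called by limma. Substrate groups, the lists of other transport genes, partners and cell markers, and the carriers themselves were chosen with earlier results of these data known. All 26 transport genes were found, 7 under older symbols. The scripts were tested on simulated data.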

Additional observations from a re-analysis of the deposited data

Results flagged for a closer look

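*Slc25a25*, the calcium-regulated ATP-Mg/phosphate carrier, had opposite differences at the 2 ages. Its ratio of csPIMT-/- over PIMT fl/fl was 0.479 at 2 months and 3.27 at 6 months, each with a counting interval that lay clear of 1. The difference between the ages was not tested, since each age has 1 library per genotype. The control pools themselves stood at 0.409, 6 over 2 months, which is the only ratio below 0.5 between controls among the 43 carriers. Set against the control of the other age, the csPIMT-/- library of 2 months was at 1.10 and that of 6 months at 1.41.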

How the results depend on the processing

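With TMM normalization or a pseudocount of 5 reads, all 86 carrier ratios (43 at each age) moved by less than their counting intervals. Asking for at least 100 reads left 7 of 38 carriers lower and 7 higher at 2 months, beside 2854 and 1618 of 12374 genes (23.1% and 13.1%). Asking that the whole interval lie past 2-fold left 6 carriers lower and 7 higher at 2 months, beside 2489 and 1607 of 15152 genes (16.4% and 10.6%). At 6 months it left 6 lower and 1 higher, beside 2957 and 1591 of 15218 genes (19.4% and 10.5%). With the GC trend subtracted, 6 carriers were lower and 2 higher at 2 months. Of genes with a GC value, 1537 of 13748 were then lower and 2005 higher at 2 months, and 1763 of 13787 were lower at 6 months. *Slc25a40* then came to 1.01 and 1.0, *Slc25a46* to 1.06 and 1.01, and *Slc25a32* at 6 months to 1.11. With the GC content of the longest transcript of any type, a choice made after seeing the data, 5 carriers were lower and 3 higher at 2 months, and *Slc25a32* came to 1.04 at 6 months. Of genes with a GC value, 1599 of 13748 were lower and 2059 higher at 2 months in that setting, and 1824 of 13787 were lower at 6 months. Against the control of the other age or both controls summed, 4 carriers were higher at 6 months, beside 18.2% and 15.4% of all genes. *Slc25a25* at 2 months came to 1.10 with the older control. limma called 0 carriers and 0 of all genes in each direction without the mean trend, with the GC trend subtracted and with that of the longest transcript. At an unadjusted p under 0.05, 3387 of 14935 genes were lower and 2547 higher in the first of these fits. The counts were 1550 and 1695 in the second, and 1655 and 1834 in the third, of which 3 and 1 were carriers. The causes of these changes were not tested. edgeR, a pseudocount of 5, the deposited values as they are and no filter beyond 1 read kept the count of called carriers within 1.5 times. No paired analysis was possible because each group has 1 library, and for the same reason no library could be left out. Counting error is small beside these shifts, and the spread between hearts is unknown.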
